A study of Homo sapiens with 2 samples.

Results

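The subject here is the integrin and laminin subunit genes of HCT116 cells, a human colon carcinoma line that grows as an epithelium. The members were chosen by gene symbol alone: every integrin alpha gene named ITGA followed by a number or by V, E, D, L, M or X, every ITGB gene, and every LAMA, LAMB and LAMC gene. The symbols matched 37 of the 60623 named genes in the deposited count table, of which 36 are described here. The rule itself used no measured value, but it was set with earlier results of these data known. Of the 36, 19 had a mean of at least 1 CPM (counts scaled to a common library depth, here with TMM factors) and are called measured below, as were 13217 of all named genes. Because the symbol rule does not take ITGA2B, the alphaIIb subunit of platelets, that gene is not a member; it had 67 counts in siKAT7 and 72 in siControl.

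The siKAT7 group was HCT116 cells, labelled wild type in genotype, transfected with an siRNA against KAT7 (also called HBO1), a lysine acetyltransferase that modifies histones. The siControl group was the same line, also labelled wild type, transfected with a non-specific siRNA. Both were transfected with Lipofectamine 2000, and RNA was extracted with TRIzol. Each group had 1 library, so no difference has a replicate check and no test between conditions exists. The time after transfection was not given in the sources used here.

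Integrins are receptors built from 1 alpha and 1 beta subunit that join the extracellular matrix, or other cells, to the cytoskeleton. Laminins are secreted trimers of 1 alpha, 1 beta and 1 gamma chain that form the sheet of the basement membrane under an epithelium. In intestinal and other epithelia the integrins alpha3-beta1, alpha6-beta1 and alpha6-beta4 bind laminins, and alpha6-beta4 anchors hemidesmosomes to keratin filaments through plectin. The choice of alpha subunit decides the ligand: laminin, collagen, or proteins such as fibronectin that carry an Arg-Gly-Asp (RGD) motif.

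After rounding, the libraries held 23533134 counts in siKAT7 and 23450326 in siControl over the named genes. KAT7 itself had 287.22 expected counts in siKAT7 and 442.94 in siControl, or 12.7 and 18.2 CPM, which is 69.6% of the siControl level with a 95% counting interval of 59.7% to 80.8%. Of 8 epithelial markers, 7 were measured, and KRT8 was the highest of them with 133140 and 139208 counts; the colon antigen gene GPA33 had 1 and 12. For markers of other cell types, the sums rested on few genes. Endothelial markers summed to 0.970 CPM in siKAT7 and 0.822 in siControl, with 5 of 6 at 0 in each library. Blood cell markers summed to 25.7 and 25.6 CPM, of which CORO1A held 22.4 and 23.7, and PTPRC was at 0 in both. Platelet markers summed to 4.54 and 4.44 CPM. Of these, ITGA2B had 2.95 and 2.96, GP1BA had 1.59 and 1.48, and PF4, PPBP and GP9 were at 0 in both. Fibroblast markers summed to 32.9 and 33.0 CPM, of which COL1A1 held 31.1 and 31.2, and LUM was at 0 in both. Muscle markers summed to 31.2 and 28.97 CPM, with 3 of 6 measured. The highest muscle value was 16.6 CPM in siKAT7 and 18.2 in siControl, and MYOD1 was at 0 in both. In bulk RNA, fewer cells of a type and less RNA per cell cannot be told apart. The intervals below cover counting error and nothing else, because amplified reads with no molecular identifiers do not each stand for a separate molecule.

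ITGA3 and ITGB4, subunits of laminin receptors, had the highest levels of the set in both libraries, and no measured subunit described here differed by 1.5-fold. KAT7, the siRNA target, did not reach 1.5-fold with TMM factors either, at a log2 ratio of -0.52 (-0.74 to -0.31). With total-count scaling KAT7 passed that line, at -0.63. In siKAT7, 0 of the 19 measured members were at least 1.5-fold higher with a counting interval excluding 0, a rule that 3.92% of all measured genes met. By the same rule 0 were lower, which 3.91% met. Most such genes were at low levels: of 5383 genes of 1 to 10 CPM, 409 were higher and 457 lower. Of 6076 genes of 10 to 100 CPM, 70 were higher and 59 lower, and of 1758 genes above that, 39 and 1. Of the 19 members, 15 averaged at least 10 CPM, where few genes met the rule. The log2 ratios (siKAT7 over siControl) ran from -0.38 for ITGAV to 0.13 for LAMB3, with a median of -0.07, against a median of -0.0048 over all 13217 measured genes. Of the 19 ratios, 14 were below 0, as were 50.7% of all ratios. That share varied with level: 2812 of the 5383 genes of 1 to 10 CPM, 3244 of the 6076 of 10 to 100 CPM, and 646 of the 1758 above that. In this top class 921 intervals lay wholly above 0 and 448 below. Genes of 100 to 300 CPM, 6 members among them, had a median ratio of 0.05. From 300 CPM, with 2 members, the median was 0.13. The part of level in the members' ratios was not tested. For 6 members the interval lay wholly below 0 (22.0% of all measured genes), for 1, LAMB3, wholly above 0 (23.0%), and for 12 it included 0. These splits move with the scaling: taking the plain library totals in place of TMM factors shifts the median gene by -0.11, after which 18 of the 19 ratios were below 0 (65.9% of all measured genes), 12 with the interval below 0 (35.6%) and 0 with it above (13.3%). By the 1.5-fold rule 0 were then higher (2.72%) and 0 lower (6.34%). With DESeq2 size factors 14 ratios were below 0 (52.2%), 8 intervals lay below 0 (23.2%), ITGA3 and LAMB2 being the 2 added, and 1 above (22.0%), with 0 members 1.5-fold higher (3.77%) and 0 lower (4.10%).

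**Figure D1:**
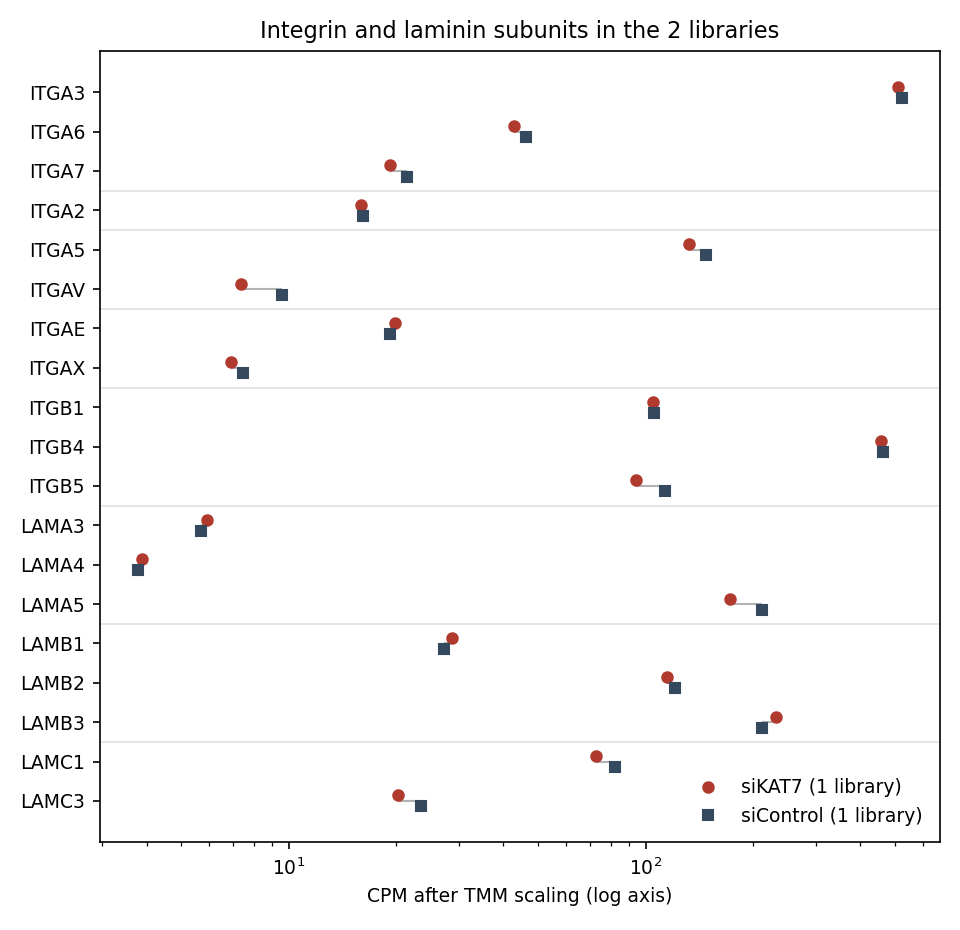
CPM (log axis) of the 19 measured integrin and laminin subunits, 1 library per group, grouped by role from laminin-binding alpha subunits at the top to laminin gamma chains at the bottom. The siKAT7 and siControl points lie close together for every gene, with the widest gap at ITGAV (7.36 and 9.57 CPM).

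Among the laminin-binding alpha subunits, ITGA3 was the most abundant. ITGA3 (ENSG00000005884, chromosome 17, 50055968 to 50090481 of GRCh38) encodes alpha3, which pairs with beta1. It had 11569 expected counts in siKAT7 and 12701.35 in siControl, or 510 and 522 CPM. On the log2 scale this was a ratio of -0.03 (-0.07 to 0.00), which included 0 with TMM factors. It was -0.04 (-0.08 to -0.0059) with DESeq2 factors and -0.14 (-0.18 to -0.10) with total counts. ITGA6 encodes alpha6, the partner of both beta1 and beta4, and had 973 counts in siKAT7 and 1128 in siControl. Its ratio of -0.11 had an interval of -0.24 to 0.01. ITGA7 encodes alpha7, best known from muscle, and had 436 and 523 counts with a ratio of -0.16 (-0.35 to 0.03). All 3 ratios were below 0, and all 3 intervals included 0 with TMM factors and excluded it with total-count scaling.

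Levels were compared between genes only per length, as CPM per kilobase of the gene length in the deposited table. On that scale ITGA3 was first of the 36 members in both libraries, at 139 CPM per kilobase in siKAT7 and 142 in siControl. ITGA6 stood at 12.6 and 13.7, so ITGA3 was 11.0-fold above ITGA6 in siKAT7 and 10.4-fold in siControl. ITGA7 stood at 4.89 and 5.47. ITGA3 alone made up 70.2% of the summed alpha subunit level in siKAT7 and 68.7% in siControl. The longest annotated ITGA3 transcript has 5479 bases against a deposited length of 3665. On that length ITGA3 stood at 93.1 CPM per kilobase in siKAT7 and 95.3 in siControl, and the share was not recomputed.

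**Figure D2:**
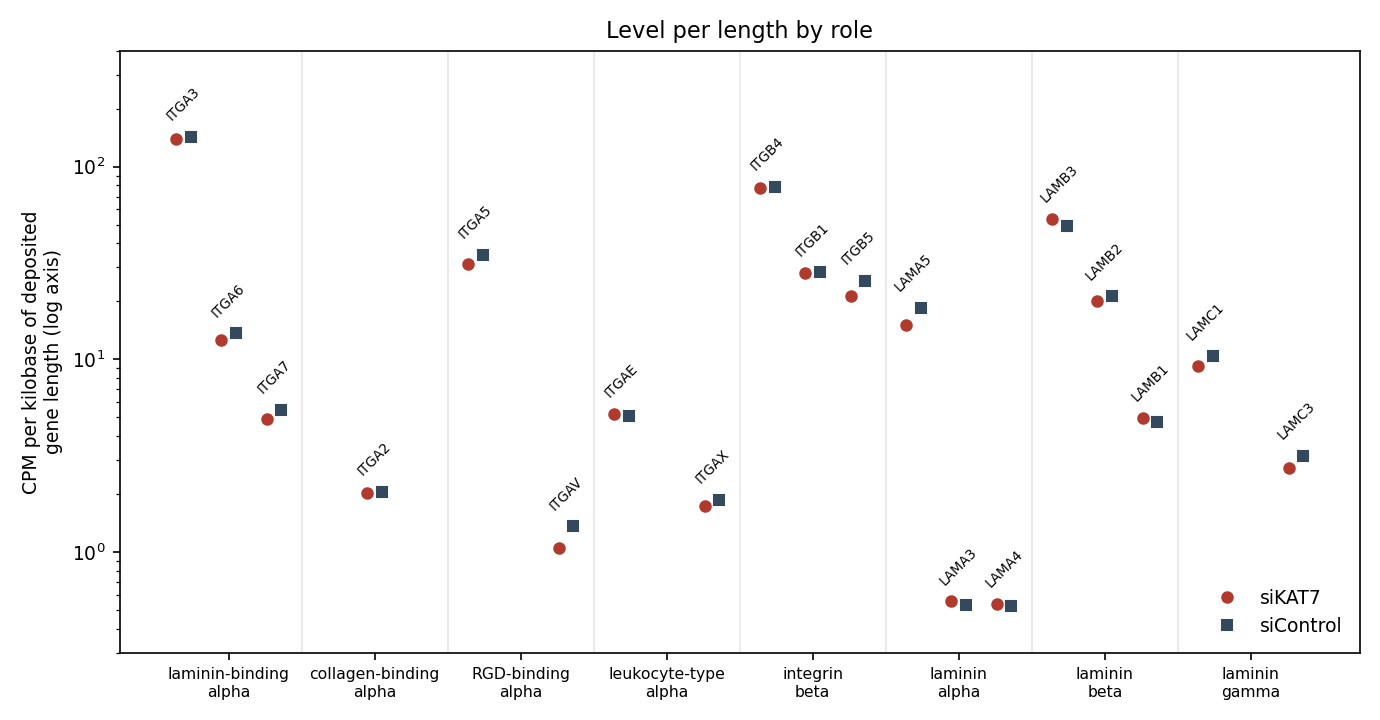
CPM per kilobase of deposited gene length (log axis) of the 19 measured subunits, by role, with the siKAT7 point left of the siControl point of each gene. ITGA3 is highest at 139 and 142, ITGB4 follows at 77.3 and 78.5 and LAMB3 at 53.8 and 49.2, while LAMA3 and LAMA4 lie lowest at 0.554 and 0.532 and at 0.537 and 0.523.

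Both measured RGD-binding alpha subunits had intervals below 0. ITGA5 encodes alpha5, the fibronectin receptor subunit, and had 3002 counts in siKAT7 and 3606 in siControl. Its log2 ratio was -0.16 (-0.23 to -0.09), a level in siKAT7 that was 0.894-fold that of siControl. ITGAV encodes alphaV, which pairs with beta1, beta3, beta5, beta6 and beta8, and had 167 and 233 counts. Its ratio of -0.38 (-0.67 to -0.09) was the lowest of the 19, on far fewer reads than ITGA5, and the wide interval reached past the 1.5-fold line. Both intervals also lay below 0 under total-count scaling, at -0.27 and -0.48. The third RGD-binding gene of the set, ITGA8, was listed at 0 in both libraries.

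Of the collagen-binding alpha subunits, ITGA2 was the measured one. It encodes alpha2, the collagen receptor subunit of epithelial cells and platelets, and had 361 counts in siKAT7 and 392 in siControl. Its ratio was -0.02 (-0.23 to 0.19), so a difference was not detectable at this depth. ITGA1, ITGA10 and ITGA11 had 9.07, 5 and 2 counts in siKAT7 and 14.13, 5 and 0 in siControl.

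A pair of alpha subunits known from leukocytes was measured in these epithelial cells. ITGAE encodes alphaE, which with beta7 binds E-cadherin, and had 450 counts in siKAT7 and 469 in siControl, with a ratio of 0.04 (-0.15 to 0.23) that turned to -0.06 with total-count scaling. ITGAX encodes the CD11c subunit, a partner of beta2, and had 156 and 181 counts with a ratio of -0.11 (-0.43 to 0.20). The beta partners were near 0: ITGB7 had 4 counts in siKAT7 and 2.93 in siControl, and ITGB2 had 2.89 and 3. Per kilobase ITGAE stood 82.6-fold above ITGB7 in siKAT7 and 115-fold in siControl, ratios whose lower terms rest on those few counts. ITGB7 shares 42.1% of its exon bases with ZNF740 on the opposite strand, which had 545 and 633.07 expected counts. Of the blood cell markers, PTPRC had 0 counts in both libraries, while CORO1A had 507.66 expected counts in siKAT7 and 578.07 in siControl. ITGAE shares 427 exon bases, or 6.41% of its exons in GENCODE 29, with HASPIN on the opposite strand, which had 277 and 387 counts. The strand setting of the counting was not given in the sources used here, so reads in the shared bases cannot be told apart.

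Among the beta subunits, ITGB4, ITGB1 and ITGB5 were measured, and the other 5 were not. ITGB4 encodes beta4, which pairs with alpha6 alone, and had 10331 counts in siKAT7 and 11270 in siControl, with a ratio of -0.02 (-0.06 to 0.02). ITGB1 encodes beta1, the common partner of the matrix-binding alpha subunits, and had 2385.96 and 2564.95 expected counts, with a ratio of -0.0024 (-0.08 to 0.08). ITGB5 encodes beta5, which pairs with alphaV, and had 2138 and 2753 counts, with a ratio of -0.26 (-0.34 to -0.18). The intervals of ITGB4 and ITGB1 thus included 0 with TMM factors, as they did with DESeq2 factors. With total-count scaling both lay below 0, ITGB4 at -0.13 (-0.17 to -0.09) and ITGB1 at -0.11 (-0.19 to -0.03). The interval of ITGB5 lay below 0 under every scaling tried.

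Partner subunits stood at different levels. Per kilobase, ITGB4 was at 77.3 in siKAT7 and 78.5 in siControl, which is 6.11-fold and 5.75-fold above ITGA6, its partner. With the longest annotated transcript as length, which is longer for ITGA6 than the deposited length, these became 10.1-fold and 9.48-fold. ITGB1 was at 28.2 and 28.3, below ITGA3 by a factor of 4.93 in siKAT7 and 5.04 in siControl. With the longest annotated transcripts that factor shrank to 3.35 and 3.42. ITGB5 was at 21.2 and 25.5, against 1.05 and 1.36 for ITGAV, a 20.3-fold and 18.7-fold gap. Of the summed beta subunit level, ITGB4 made up 60.9% in siKAT7 and 59.2% in siControl.

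Of the laminin alpha chains, LAMA5 was the main one and had the lowest ratio among the measured laminins described here. LAMA5 (ENSG00000130702, chromosome 20, 62307955 to 62367312) encodes alpha5, the alpha chain of the laminins of mature epithelial basement membranes. It had 3901.17 expected counts in siKAT7 and 5145.04 in siControl, or 172 and 211 CPM. The log2 ratio was -0.30 (-0.36 to -0.24), 0.814-fold the siControl level, and -0.40 with total-count scaling. LAMA3, the alpha chain of laminin-332, a laminin that hemidesmosomes attach to, had 134 and 138 counts with a ratio of 0.06 (-0.29 to 0.41). LAMA4, known from vessel walls, had 88 and 92 with 0.04 (-0.40 to 0.48). Both of these ratios turned negative under total-count scaling, at -0.05 and -0.07. LAMA5 held 93.0% of the summed laminin alpha level in siKAT7 and 94.2% in siControl. LAMA5 shares 244 exon bases, 1.71% of its exons, with ADRM1 on the opposite strand, which had 8014.77 and 7390.86 expected counts.

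The laminin beta chains held the one member whose interval lay above 0. LAMB3 encodes the beta3 chain of laminin-332 and had 5250 counts in siKAT7 and 5153 in siControl, or 232 and 212 CPM. Its ratio was 0.13 (0.07 to 0.18) with TMM factors and 0.02 (-0.03 to 0.08) with total-count scaling. LAMB2, the beta2 chain, had 2602 and 2938 counts, with a ratio of -0.07 (-0.15 to 0.00). It was -0.08 (-0.16 to -0.0062) with DESeq2 factors and -0.18 (-0.26 to -0.10) with total counts. LAMB1, the beta1 chain, had 649.32 and 663 expected counts, with a ratio of 0.07 (-0.09 to 0.23) that was -0.04 with total-count scaling. Per kilobase LAMB2 was 4.06-fold above LAMB1 in siKAT7 and 4.49-fold in siControl.

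Of the laminin gamma chains, LAMC1 encodes gamma1, the gamma chain shared by most laminins, and had 1652 counts in siKAT7 and 2003 in siControl, with a ratio of -0.18 (-0.27 to -0.08). LAMC3 encodes gamma3 and had 459 and 570 counts, with a ratio of -0.21 (-0.39 to -0.03). Both intervals lay below 0 under each of the 3 scalings. Per kilobase LAMC1 stood at 9.19 in siKAT7 and 10.4 in siControl, which is 3.38-fold and 3.30-fold above LAMC3.

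**Figure D3:**
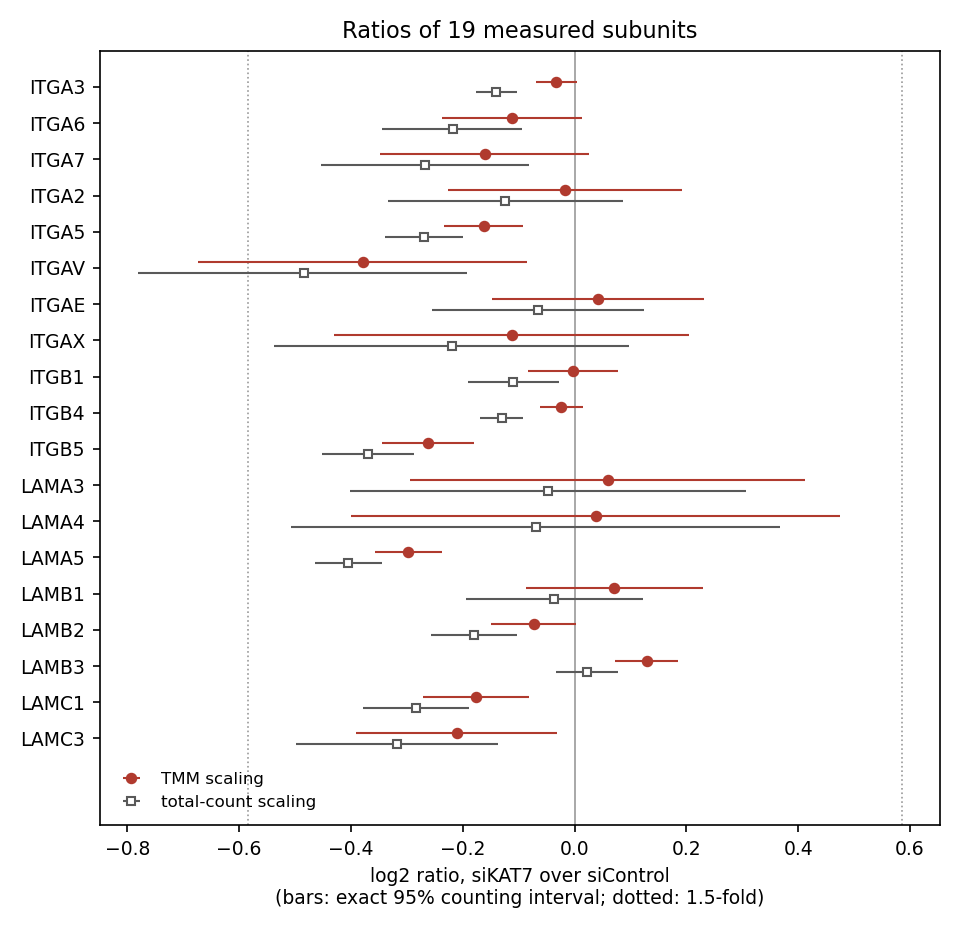
Log2 ratio, siKAT7 over siControl, of the 19 measured subunits with exact 95% counting intervals, for TMM scaling (filled) and total-count scaling (open); dotted lines mark 1.5-fold. All points lie inside the dotted lines, with ITGAV lowest at -0.38 and LAMB3 highest at 0.13 under TMM scaling.

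The alpha3 and beta3 chains of laminin-332 were far apart in level. Per kilobase, LAMB3 stood at 53.8 in siKAT7 and 49.2 in siControl, and LAMA3 at 0.554 and 0.532. LAMB3 was thus 97.02-fold above LAMA3 in siKAT7 and 92.5-fold in siControl. The deposited LAMA3 length is that of its long form. With the 5671 bases of a shorter form, LAMB3 was 51.6-fold and 49.2-fold above it. In the laminins of alpha5, beta2 and gamma1 the levels lay closer, with LAMA5 at 15.1 and 18.5, LAMB2 at 20.2 and 21.2, and LAMC1 at 9.19 and 10.4.

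Promoter windows are shown for LAMA3 and LAMB3, the laminin-332 chains far apart in level, and for LAMA5 and ITGA5, a pair out of the 6 members whose ratio intervals lay below 0. They were picked with the motif matches known, and the 4 hold every TGANTCA match found in the members' windows. Each window holds 300 bases, mostly upstream of a RefSeq start (build GRCh38.p14), on the strand of its gene, and 25 of the 36 members had at least 1. Capitals mark matches on either strand to TGANTCA, the core letters bound by AP-1 factors, and to GGGCGG, the GC box, or its reverse complement; no match overlaps another in these 4 windows. The LAMA3 window, chr18:23872770-23873069 on the forward strand, lies 183577 bases inside the GENCODE gene, at the start of another annotated transcript. The LAMB3 window, chr1:209651325-209651624 on the reverse strand, is 1 of 3 for that gene, and the other two hold 0 matches to TGANTCA. LAMA5 is at chr20:62367263-62367562 and ITGA5 at chr12:54419217-54419516, both on the reverse strand.
LAMA3: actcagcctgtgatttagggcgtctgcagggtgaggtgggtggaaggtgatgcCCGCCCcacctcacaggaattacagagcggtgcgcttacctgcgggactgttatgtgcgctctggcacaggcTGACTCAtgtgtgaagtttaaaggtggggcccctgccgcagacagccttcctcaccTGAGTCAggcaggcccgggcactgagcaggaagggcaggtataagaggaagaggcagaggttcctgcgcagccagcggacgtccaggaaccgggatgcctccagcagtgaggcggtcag
LAMB3: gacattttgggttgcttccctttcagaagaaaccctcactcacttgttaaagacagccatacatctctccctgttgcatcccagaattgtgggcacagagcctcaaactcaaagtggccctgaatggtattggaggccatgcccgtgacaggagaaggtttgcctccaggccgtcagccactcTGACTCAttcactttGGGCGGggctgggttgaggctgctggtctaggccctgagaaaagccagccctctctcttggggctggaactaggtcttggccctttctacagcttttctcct
LAMA5: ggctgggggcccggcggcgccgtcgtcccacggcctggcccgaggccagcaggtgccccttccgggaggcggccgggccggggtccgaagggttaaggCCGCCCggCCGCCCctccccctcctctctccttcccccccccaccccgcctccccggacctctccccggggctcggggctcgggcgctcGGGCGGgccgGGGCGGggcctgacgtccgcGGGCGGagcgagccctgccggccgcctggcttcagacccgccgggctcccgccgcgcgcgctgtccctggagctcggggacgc
ITGA5: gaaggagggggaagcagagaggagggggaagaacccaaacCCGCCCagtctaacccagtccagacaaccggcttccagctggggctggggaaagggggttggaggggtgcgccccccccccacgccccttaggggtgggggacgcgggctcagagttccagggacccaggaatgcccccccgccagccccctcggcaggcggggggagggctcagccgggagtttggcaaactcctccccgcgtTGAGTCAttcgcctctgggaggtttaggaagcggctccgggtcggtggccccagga
TGANTCA occurred 2 times in the LAMA3 window, 1 time each in the LAMB3 and ITGA5 windows, and 0 times in the LAMA5 window. It occurred 0 times in the windows of ITGAV, ITGB5 and LAMC1, whose ratio intervals also lay below 0. LAMC3, the remaining measured member with such an interval, had no window. Of the 32 windows of members, 3 held TGANTCA, and 7.71% of all 35116 windows did. GGGCGG occurred 5 times in the LAMA5 window and 1 time in each of the others, and 19 of the 32 member windows and 45% of all windows held it. These matches describe letters in a window and were not tied to the levels.

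The difference between the ratios of 2 members does not depend on scaling, because the same factors enter both genes. A chosen list of 13 pairs was compared. Some were partners in one receptor or laminin, and the others alternative subunits of the same class. Of the 13, 2 had a difference of log2 ratios with a counting interval that excluded 0. Other pairs of members were not compared, so this count does not show how often subunits differ. ITGB1 exceeded ITGB5, another beta subunit, by 0.26 (0.14 to 0.38), so the level of ITGB1 relative to ITGB5 per kilobase was 1.33 in siKAT7 and 1.11 in siControl. LAMB3 and LAMA3 differed by 0.07 (-0.29 to 0.43). LAMA5 lay below LAMC1, a chain it shares laminins with, by a difference of -0.12 (-0.23 to -0.0087). For ITGB4 and ITGA6, the alpha6-beta4 pair, the difference was 0.09 (-0.04 to 0.22), and for ITGA3 and ITGB1 it was -0.03 (-0.12 to 0.06). For ITGB5 and ITGAV it was 0.12 (-0.19 to 0.42), so for these pairs no difference was detectable at this depth.

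The other 17 members did not reach a mean of 1 CPM, and each had at most 34 counts summed over both libraries. ITGA8 and LAMB4 were listed at 0 in both, which allows up to 0.132 CPM in siKAT7 and 0.123 CPM in siControl (3 counts). LAMA1 and ITGB6 had 0 counts in siKAT7 and 2 in siControl. ITGB3, the beta3 subunit of platelets and osteoclasts, had 0 in siKAT7 and 13 in siControl, at least 4.04-fold lower in siKAT7 when a floor of 3 counts is set for that library and the 13 counts are taken as exact. The counting interval of its log2 ratio, which allows for error in both, ended at -1.51. ITGB3 shares 51.6% of its exon bases with AC068234.1, a protein-coding gene on the same strand, which had 1 and 0 counts. ITGAM, the CD11b subunit of myeloid cells, had 5 counts in siKAT7 and 18 in siControl, a ratio of -1.65 (-3.53 to -0.26). ITGB3 and ITGAM were the 2 of the 17 with an interval below 0, and 0 of the 17 had one above. Of all 47406 named genes under 1 CPM, 0.987% had an interval below 0 and 1.03% one above, a base that includes 37013 genes listed at 0 in both libraries.
ITGAL had 10.11 expected counts in siKAT7 and 5 in siControl, ITGB8 had 20.24 and 12, ITGA9 had 12 and 22, LAMA2 had 10 and 16, ITGAD had 1 and 0, and ITGA4 had 1.3 and 0.

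Ratios varied with gene length across the whole table, and the members are long genes. The median deposited length was 5692 bases for the 19 measured members and 2892 for all measured genes. For the 7834 genes that averaged 10 CPM or more, the median log2 ratio was 0.09 below 2000 bases, -0.02 from 2000 to 4000, -0.06 from 4000 to 6000, and -0.08 from 6000 upwards. The 15 members at that level had a median of -0.07, and relative to the median of their own length class it was -0.02, with 9 of the 15 below. LAMA5 was 0.22 below its class (-0.22) and ITGB5 0.20 below (-0.20), while LAMB3 was 0.19 above. None of the 15 lay outside the central 95% of ratios in its length class, which ran from -0.48 to 0.36 for genes of 6000 bases or more. The part of gene length in these ratios was not tested. These length classes were chosen after the data were seen.

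**Figure D4:**
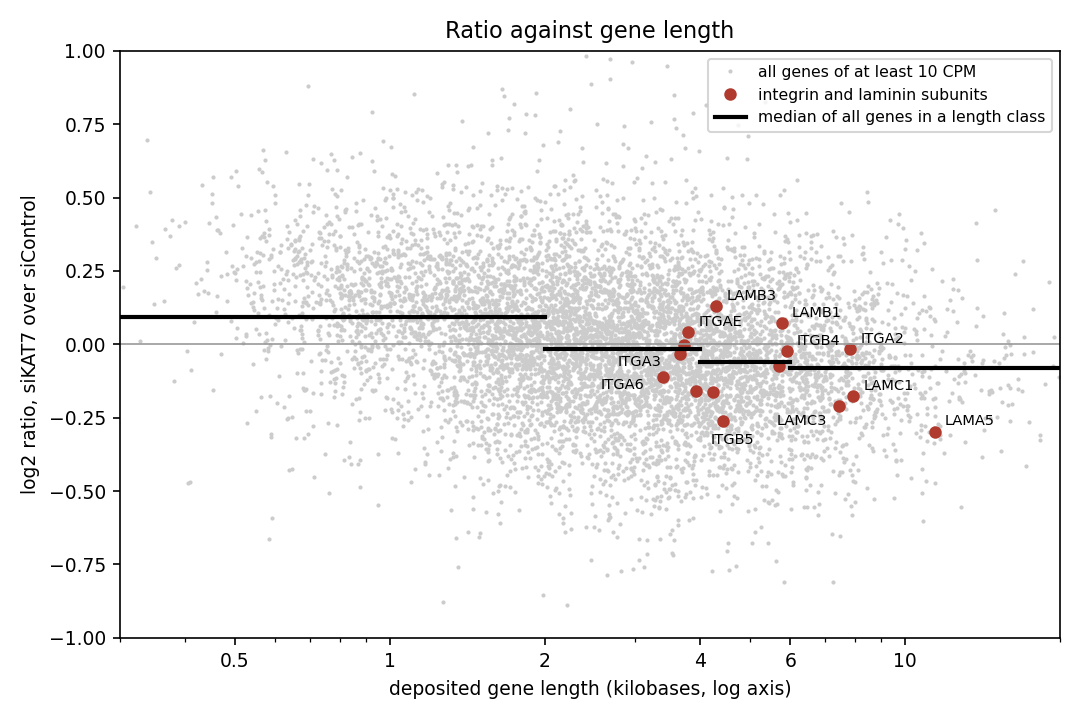
Log2 ratio, siKAT7 over siControl, against deposited gene length (log axis) for the 7834 genes that averaged 10 CPM or more (grey; 48 lie beyond the axes, 0 of them members), with the 15 members at that level in red, 11 of them labelled, and black lines at the class medians. The lines step down from 0.09 for the shortest class to -0.08 for the longest, and most members sit near or below their line.

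Lists of the genes around the integrins and laminins were counted by the same 1.5-fold rule, which 3.92% of all measured genes met as higher and 3.91% as lower. Of the 5383 genes that averaged 1 to 10 CPM, 457 were lower by it. COL4A6, TLN2 and KRIT1, named below, were at that level. The list medians below were not adjusted for gene length or level. Of 25 basement membrane and other matrix ligand genes, 17 were measured, 0 were higher and 1 was lower, with a median log2 ratio of -0.12. The lower gene was COL4A6, a collagen IV chain, with 55 counts in siKAT7 and 89 in siControl and a ratio of -0.59 (-1.10 to -0.09). The basement membrane proteoglycan genes AGRN, HSPG2 and COL18A1, named after their values were seen, had ratios of -0.35 (-0.41 to -0.29), -0.25 (-0.32 to -0.18) and -0.30 (-0.36 to -0.23). AGRN had 3883.40 expected counts in siKAT7 and 5323.39 in siControl. CCN1, a secreted integrin ligand likewise picked on its values, had a ratio of 0.56 (0.45 to 0.67), on 1675 and 1221 counts.

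Of 16 other laminin and matrix receptors, 15 were measured. By the 1.5-fold rule 0 were higher (3.92% of all measured genes) and 0 lower (3.91%). Their median log2 ratio was 0.12, and 0.01 with total-count scaling. RPSA, a ribosomal protein that also serves as a laminin receptor, had 105900 counts in siKAT7 and 97738 in siControl and a ratio of 0.22 (0.21 to 0.23). BSG, the membrane protein basigin, had 23788.26 and 23538 expected counts and a ratio of 0.12 (0.09 to 0.14). DAG1 and SLC3A2 were likewise picked on their values, as the lowest and highest ratios of the measured list. DAG1, the laminin receptor dystroglycan, had 3660 and 4729 counts and a ratio of -0.27 (-0.33 to -0.21). SLC3A2 had 13639 and 10866 counts and a ratio of 0.43 (0.39 to 0.47). Of the 15 intervals, 10 lay above 0 (23.0% of all measured genes) and 3 below (22.0%). With total-count scaling these were 5 (13.3%) and 4 (35.6%).

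Of 16 integrin activators and inactivators, 15 were measured, 0 were higher and 2 were lower, with a median of -0.24. The median gene was FBLIM1, with 55 and 69.63 expected counts and an interval of -0.78 to 0.28. Of the 15 intervals, 8 lay below 0 (22.0% of all measured genes) and 0 above (23.0%). Over all measured genes 3.92% were higher and 3.91% lower, a base that also applies to the lists that follow. TLN2, 1 of the talins that bind integrin beta tails, had 165.36 expected counts in siKAT7 and 291.87 in siControl and a ratio of -0.72 (-1.01 to -0.44). KRIT1, which acts on integrin activation through ITGB1BP1, had 32.64 and 77.96 expected counts and a ratio of -1.13 (-1.77 to -0.53). TLN1, the widely expressed talin, likewise picked on its values, had 4614 and 6017 counts and a ratio of -0.28 (-0.34 to -0.23). Of 24 focal adhesion adaptors and kinases all 24 were measured, with 0 higher, 0 lower and a median of -0.0095. In that list ACTN4, an actin crosslinker, had a ratio of -0.04 (-0.06 to -0.02) and PXN, the adaptor paxillin, -0.06 (-0.10 to -0.03). Of 8 hemidesmosome genes, ITGA6 and ITGB4 among them, 6 were measured with 0 higher and 0 lower. In that list, whose examples were also picked after their values were seen, the plectin gene PLEC had 29986.72 expected counts in siKAT7 and 33609 in siControl, with a ratio of -0.06 (-0.09 to -0.04). COL17A1, the transmembrane collagen of hemidesmosomes, had 160 and 115 counts and a ratio of 0.58 (0.22 to 0.94), just under the 1.5-fold line.

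**Figure D5:**
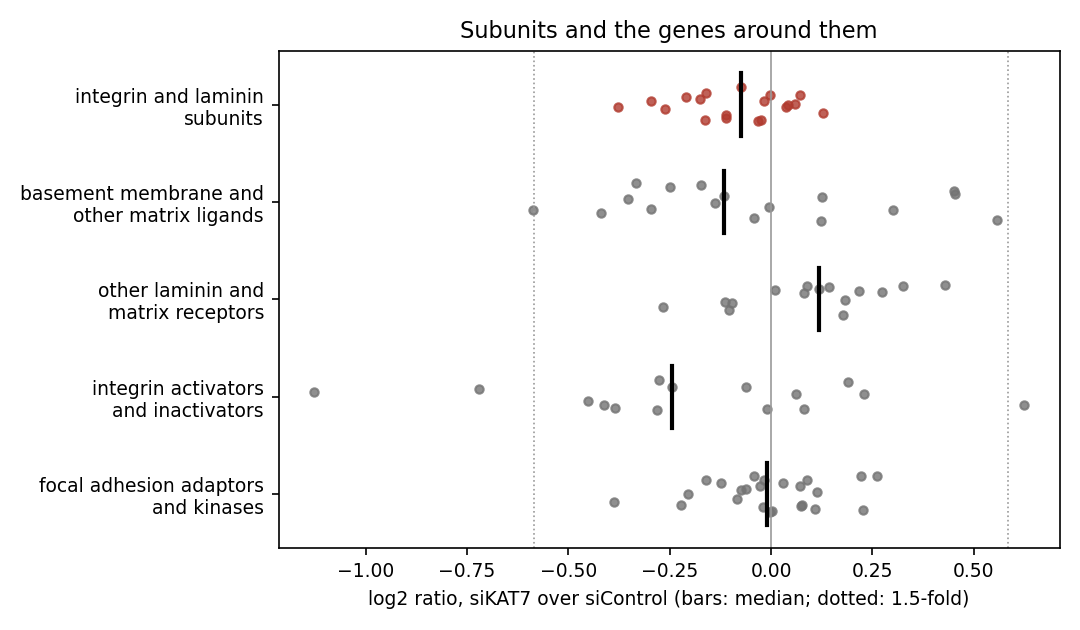
Log2 ratio, siKAT7 over siControl, of each measured gene (points) in the integrin and laminin set (red) and 4 lists of surrounding genes (grey), with medians as black bars and 1.5-fold as dotted lines. The medians are -0.07 for the subunits, -0.12 for matrix ligands, 0.12 for other receptors, -0.24 for activators and inactivators and -0.0095 for focal adhesion genes, and under total-count scaling -0.18, -0.22, 0.01, -0.35 and -0.12. They are not adjusted for gene length or level. With TMM factors, all genes of at least 10 CPM had a median of 0.09 below 2000 bases and -0.08 from 6000. All genes of 300 CPM or more had a median of 0.13.

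In the authors' deposited table, 0 of the 36 members were marked significant. KAT7, the siRNA target, was not marked there either, at a log2 fold of -0.63. The share of all genes so marked was not computed, so the 0 does not show how the members compare with other genes. The authors' deposited table lists LAMA5 at a log2 fold (siKAT7 over siControl) of -0.40 with an adjusted p of 3.7e-38, and ITGB5 at -0.37 with 1.9e-17. In the authors' deposited table LAMB3 has 0.02 with an adjusted p of 0.75. Of the 19 measured members, 18 had a log2 fold below 0 in the authors' deposited table, as did 65.8% of all measured genes. Of the 19, 12 had a fold below 0 with an adjusted p under 0.05 in the authors' deposited table, as did 29.9% of all measured genes. Such a p compares the reads of these libraries, not the conditions.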

How the data were processed

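RNA-seq of 2 libraries was analysed, 1 per group. The deposited expected counts (estimated reads per gene) come from RSEM 1.3.3 on GRCh38.p13, per the submitters' processing notes; the aligner, annotation release and strand setting were not given in the sources used here. The table repeats both count columns with 0 differing cells, so the first of each was used. The 331 unnamed assembled loci, 1.67% of counts in siKAT7 and 1.11% in siControl, stayed out. Counts were rounded and scaled by TMM factors (0.964 for siKAT7 and 1.04 for siControl; edgeR 4.0.16, R 4.3.3). Log2 ratios used a prior count of 0.5, with exact Clopper-Pearson 95% intervals of the split of each gene's counts. Differences between members used exact conditional odds ratios (scipy 1.17.1).

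The ratio (fold), log2 fold and p-value columns of the second table are the authors' own, per the file headers; their tool was not given in the sources used here. The deposited gene length gave CPM per kilobase; it equalled a GENCODE 29 transcript length for 14 of the 36 members described. Coordinates and exon overlaps came from GENCODE 29 on GRCh38, where all 36 identifiers were found. Of the 36 members, 26 had whole counts in both libraries. Ratio and interval code was tested on simulated counts.

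Members and gene lists were chosen with earlier results of these data known. Of the 37 genes the rule matched, 1 is not reported here and entered no summary of the members. The rule for named genes took KAT7, all measured members, and of each list without members up to 4 genes past 1.5-fold with at least 100 counts, or else the 2 with most counts. Of 170 list symbols 167 were in the table. Alternatives were total-count scaling, DESeq2 1.42.0 size factors, a prior count of 5, other filters, a smaller and a larger fold, and a 99% interval, the authors' log2 folds, and the longest transcript as length.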

Additional observations from a re-analysis of the deposited data

How the results depend on the processing

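No member passed the 1.5-fold rule in either direction under total-count scaling, DESeq2 size factors, a prior count of 5, the authors' log2 folds, a mean of at least 10 CPM, a fold of 2 or a 99% interval. Without the expression filter 2 members passed as lower, ITGAM and ITGB3, on few counts, and at the smaller fold threshold 1 passed, ITGAV. For no filter, a changed fold, a prior count of 5 or a 99% interval, the share of all genes passing was not computed. Those counts therefore do not show how the members compare with other genes. The median of the measured members was -0.18 under total-count scaling and -0.18 with the authors' log2 folds, against -0.08 with DESeq2 size factors, and was negative under every setting tried. Total-count scaling also put 12 intervals below 0 and 0 above, against 6 and 1 with TMM factors and 8 and 1 with DESeq2 factors; by construction a scaling factor shifts all ratios alike. Relative to genes of the same length class the median was -0.02, an alternative chosen after seeing the data. KAT7 stayed inside its interval under all 4 of its alternatives. The 5 highest members per length remained the same 5 with the longest transcript as length. In the activator list the 2 lower genes, TLN2 and KRIT1, fell under the filter at a mean of at least 10 CPM (0 passed), as did COL4A6 among the ligands (0), which also lost its place with a prior count of 5, a fold of 2 and a 99% interval; at a fold of 2, 1 activator gene, KRIT1, remained. No paired analysis was possible because each group has 1 library. Depth limits ITGAV, LAMA3, LAMA4 and ITGAX most, whose intervals span over 0.5 on the log2 scale.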
